A study of Mus musculus with 15 samples.

Results

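The comparison described here sets the livers of mice in 2 groups with restricted or suppressed food intake, averaged, against the livers of Vehicle mice. All 15 libraries of the series belong to it: 5 GDF15, 5 PairFed and 5 Vehicle, that is 10 reduced-intake libraries against 5 controls. In each gene the mean of the GDF15 group and the mean of the PairFed group were given equal weight and compared with the Vehicle mean in 1 model of the 3 groups. Libraries enter by group label alone, with no measured value.

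The mice were wild type and began a MASH diet (a diet used to induce metabolic dysfunction-associated steatohepatitis, fatty liver with inflammation) and housing at about 29 °C at an age of 8 weeks, so all 3 groups share the diet, the warm cages and single housing. The GDF15 group was given recombinant GDF15 under the skin at 1 nmol/kg once a day in the morning. The PairFed group was offered, each day, as much food as GDF15-treated mice had eaten on the previous day. The Vehicle group is labelled only as Vehicle. Its treatment is not described further, and how much any mouse ate or weighed, when livers were taken and when the mice had last eaten were not known for these samples. The label "reduced intake" therefore rests on the protocol and was not checked against a measurement.

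GDF15 is a stress hormone that acts through the receptor GFRAL in the hindbrain and lowers appetite. A pair-fed group eats as little as the treated group without receiving the hormone, so a change carried by both groups can be set apart from one carried by the GDF15 group alone. In a liver on less food, insulin falls and glucagon and glucocorticoids rise. The textbook response is a shift from storing glucose and fat to taking up and breaking down amino acids, disposing of their nitrogen through the urea cycle and making glucose. The liver also runs a daily clock of activators (Clock, Bmal1) and repressors (Per, Cry and others) that is set partly by meal times. On a diet that causes fatty liver, macrophages and lymphocytes accumulate beside the hepatocytes.

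Sequencing depth lay between 8551557 and 12994187 counts in a library. The 5 deepest libraries, separated from the rest by the largest gap in depth (10914914 to 12137462), were 4 PairFed libraries and 1 Vehicle library (Vehicle 4), so depth differed between groups. Alb, the albumin transcript of hepatocytes, was the most abundant gene in all 15 libraries, with 6.49% to 8.30% of counts, and all 20 hepatocyte markers were measured. The library GDF15 1 lay farthest out on the first principal component, which held 24.9% of the variance. Libraries are numbered by column as names only. The labels do not tie a column to an animal, and p-values measure the spread between libraries. Of 15302 genes in the table, 12274 had enough counts to be tested.

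At an adjusted p below 0.05, 270 genes differed between reduced intake and Vehicle, 2.2% of those tested. They comprised 160 higher genes (1.3% of those tested) and 110 lower genes (0.896%). Most changes were small: 20 higher and 15 lower genes moved by at least 2-fold, and the median log2 fold change was 0.44 among the higher and -0.54 among the lower genes, against -0.0027 over all genes. For 117 genes, 0.953% of those tested, all 10 reduced-intake libraries lay on one side of all 5 Vehicle libraries in CPM (the count of a gene scaled to the size of its library). Among the 270 genes called, 89 were separated in this way, 57 above and 32 below Vehicle. With upper-quartile scaling in place of TMM (edgeR's trimmed mean scaling) the split was 137 higher and 173 lower, so higher genes made up 44.2% in place of 59.3%. DESeq2's Wald test called 606 genes, among them all 270, and limma-voom called 298. In edgeR's test 2253 of the 12274 genes had an unadjusted p below 0.05.

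The number of calls rested on single libraries. Leaving out Vehicle 1 left 59 genes and leaving out Vehicle 3 left 83, while leaving out Vehicle 2, GDF15 2, PairFed 2 or PairFed 4 left 162, 137, 162 and 179. Without GDF15 3 there were 405. A core of 50 genes, 36 higher and 14 lower, passed in each of the 15 fits that left out 1 library. Immediate-early genes are switched on soon after almost any stimulus to a tissue. None of 25 tested passed edgeR's threshold (14 with an unadjusted p below 0.05, 5 called by DESeq2 and 1 by limma-voom), their median was 0.59, and their score moved with the groups: relative to the Vehicle mean it ran from -0.26 to 0.25 in Vehicle, -0.016 to 1.07 in GDF15 and 0.022 to 0.77 in PairFed (mean log2 CPM of the genes). Adjusted for that score, 1 gene remained past the threshold, the kinase gene Mknk2, and the median changes of the 270 genes were 0.33 and -0.48. Within the 10 shallower libraries alone, which hold 1 PairFed library, no gene passed edgeR's adjusted threshold, 1332 genes had an unadjusted p below 0.05, and the median changes were 0.44 and -0.52. A bar plot gives the counts under each setting.

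**Figure D1:**
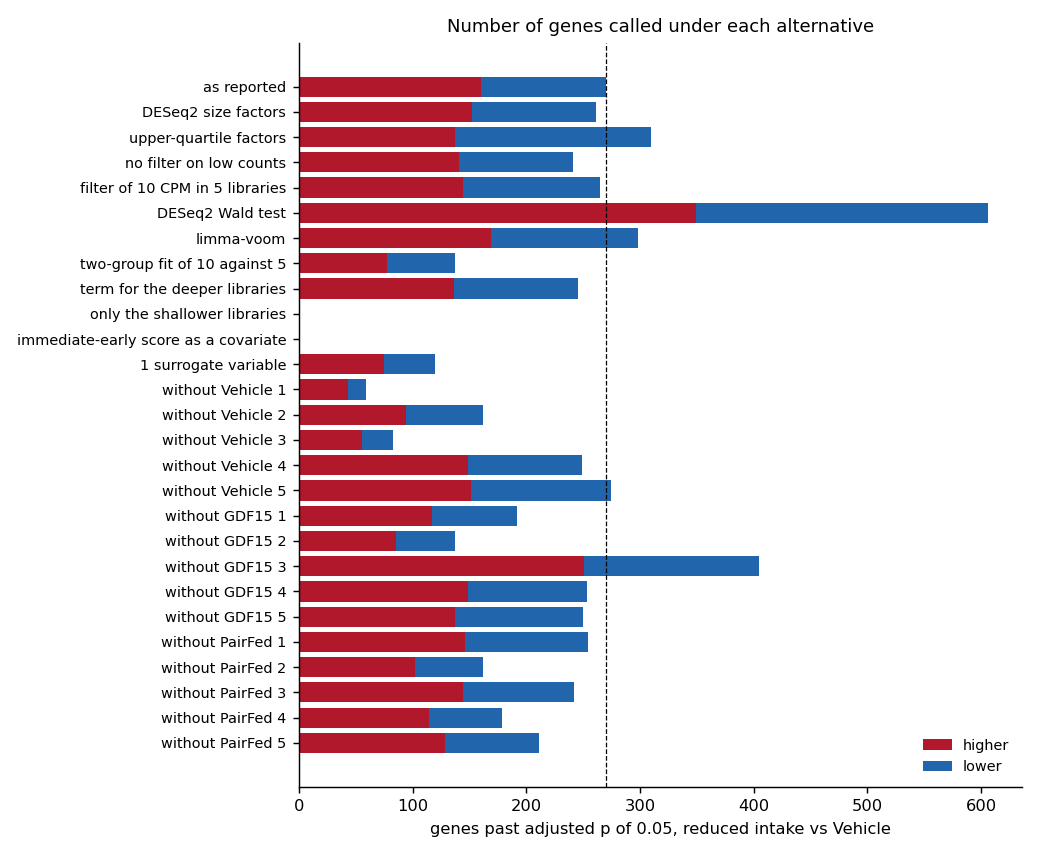
Number of genes past an adjusted p of 0.05 for reduced intake against Vehicle (x axis, genes), stacked as higher (red) and lower (blue), with the reported analysis and each alternative on the y axis and a dashed line at 270. The bars reach 606 with DESeq2's Wald test, 59 without Vehicle 1, 1 after adjustment for the immediate-early score and 0 in the shallower libraries alone.

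A gene can pass in the average of both groups through 1 of them. The difference between GDF15 and PairFed, which with equal group sizes is estimated independently of their average, was therefore tested in the same model: 96 genes, 0.782% of those tested, passed an adjusted p of 0.05. Of the 270 genes, 21 (7.78%) were among them, and in all 21 GDF15 was the higher group of the pair and the average was above Vehicle. The unadjusted 95% interval of the difference excluded 0 for 94 of the 270 genes (34.8%), 78 of them higher in GDF15 and 16 higher in PairFed, against 13.3% of all genes tested. The median change among the 160 higher genes was 0.54 in GDF15 and 0.34 in PairFed against Vehicle. Among the 110 lower genes it was -0.56 and -0.50. These 2 sets of values share the 5 Vehicle libraries and are given side by side, not as independent results. Over all genes tested, 356 passed in GDF15 against Vehicle and 35 in PairFed against Vehicle. Of the 270 genes, 201 passed in GDF15 and 27 in PairFed, among them 13 in both, and 55 passed in neither. The absolute change in GDF15 was over 2 times that in PairFed for 54 of the 270, the reverse for 8, and neither for 208. With a term for the deeper libraries, 9 genes differed between GDF15 and PairFed in place of 96, and 3 of the 21 were among them. The differences themselves stayed about as large: GDF15 was the higher group in all 21, with a median difference of 0.53 (0.21 to 1.49) in place of 0.56 (0.30 to 1.48), while the median standard error was 0.141 in place of 0.109.

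**Figure D2:**
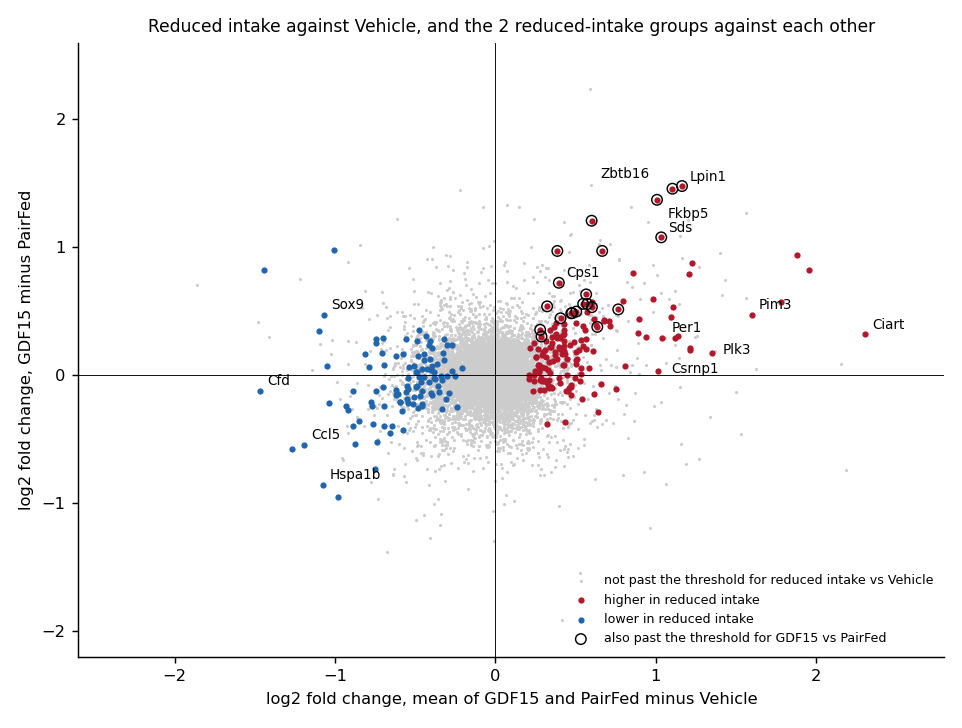
Log2 fold change of reduced intake against Vehicle (x axis) and of GDF15 minus PairFed (y axis) for genes whose log2 CPM averages 1 or more, grey where not past the threshold, red and blue for genes higher and lower in reduced intake, ringed where GDF15 and PairFed also differed. Ciart (2.30), Plk3 (1.35) and Per1 (1.21) lie far right near the horizontal axis, and Lpin1, Zbtb16 and Fkbp5 lie far right and high.

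The gene with the smallest p was Mknk2 (chr10:80665318-80676293, GRCm38), which encodes a kinase of the translation factor eIF4E. Its values were 209, 231, 193, 237 and 222 CPM in the Vehicle libraries, 382, 435, 320.4, 394 and 403 CPM in the GDF15 libraries and 303, 302, 269, 327 and 287 CPM in the PairFed libraries. All 10 reduced-intake libraries lay above all Vehicle libraries. The average rose by 0.64 ± 0.071 (SE; adjusted p = 0.000602), or 1.55-fold, and GDF15 exceeded PairFed by 0.38 (95% interval 0.21 to 0.55; adjusted p = 0.0348). Csrnp1 (chr9:119971163-119984742), a nuclear protein gene induced by axin, had values of 8.91, 10.9, 6.24, 11.1 and 10.6 CPM in the Vehicle libraries, 32.1, 33.3, 14.2, 16.96 and 23.5 CPM in the GDF15 libraries and 21.7, 23.8, 16.5, 18.9 and 22.7 CPM in the PairFed libraries. The groups did not overlap, and the arms were at 1.31 in GDF15 and 1.11 in PairFed. Its average rose 2.32-fold, by 1.21 ± 0.21 (SE; adjusted p = 0.0112), with a GDF15 minus PairFed interval of -0.26 to 0.66. The stress-regulated kinase Plk3 rose by 1.35 ± 0.26 (SE; adjusted p = 0.0208) and the growth-related kinase Pim3 by 1.60 ± 0.34 (SE; adjusted p = 0.0305), both without overlap of the groups. Hspa2, a heat shock protein 70 gene, rose by 1.01 ± 0.21 (SE; adjusted p = 0.0215) and Txnrd3, a thioredoxin reductase gene, by 0.62 ± 0.10 (SE; adjusted p = 0.00645), also without overlap. None of these genes is on the immediate-early list. With that list's score as a covariate the changes were 0.49 for Mknk2, 0.72 for Csrnp1, 0.87 for Plk3, 0.91 for Pim3, 0.54 for Hspa2 and 0.65 for Txnrd3. Of these, Mknk2 alone stayed past edgeR's threshold (adjusted p = 0.0415). The adjusted p of the others ran from 0.126 for Txnrd3 to 0.473 for Hspa2. Mknk2, Csrnp1 and Txnrd3 kept the call whichever library was left out. The call was lost by Plk3 without any 1 of Vehicle 1 and 3 (adjusted p up to 0.0752, without Vehicle 3), Hspa2 without any 1 of Vehicle 1 and 3 (adjusted p up to 0.0738, without Vehicle 1) and Pim3 without any 1 of Vehicle 1, 2, 3 and 4, GDF15 2 and PairFed 2 (adjusted p up to 0.0907, without Vehicle 1).

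Genes that carry nitrogen to urea were higher in reduced intake. Of 13 urea cycle and ammonia genes tested, 5 rose and none fell, where 1.3% of all genes tested rose, and the median change was 0.34 (0.57 in GDF15 and 0.10 in PairFed against Vehicle). They were Cps1, which makes carbamoyl phosphate at the entry of the cycle, Ass1 and Asl, which make and cleave argininosuccinate, Arg1, the arginase that releases urea, and Gls2, the liver glutaminase that frees ammonia. The score over the list ran from -0.085 to 0.053 in Vehicle, 0.28 to 0.65 in GDF15 and 0.08 to 0.24 in PairFed, so all 10 reduced-intake libraries lay above the highest Vehicle library. Without 1 library the count of risen genes ran from 2 to 7 genes, the fewest without Vehicle 1. The shares over all genes tested, 1.3% that rose and 0.896% that fell, stand beside every gene list given here. So do the counts over all 12274 genes: 2253 with an unadjusted p below 0.05, 606 called by DESeq2 and 298 by limma-voom. All lists were chosen with results of these data known, so their counts and directions are no independent evidence.

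Ass1 values were 1957, 1797, 2659, 1881 and 2194 CPM in the Vehicle libraries, 3645, 3751, 3025, 4035 and 3219.5 CPM in the GDF15 libraries and 2152, 2932, 2374, 2586 and 2470.4 CPM in the PairFed libraries. The PairFed libraries overlapped the Vehicle range and the GDF15 libraries did not. Ass1 rose by 0.50 ± 0.10 (SE; adjusted p = 0.0134). Gls2 rose by 0.55 ± 0.10 (SE; adjusted p = 0.0093), Asl by 0.62 ± 0.13 (SE; adjusted p = 0.0244) and Arg1 by 0.43 ± 0.083 (SE; adjusted p = 0.0144), and in each of these 3 genes every reduced-intake library lay above every Vehicle library. Cps1 passed in the average at 0.40 ± 0.081 (SE; adjusted p = 0.0183) but was at 0.76 in GDF15 and 0.034 in PairFed against Vehicle, a difference of 0.72 (95% interval 0.53 to 0.92; adjusted p = 0.000652). Arg1 was at 0.59 and 0.26, and its difference was 0.32 (95% interval 0.12 to 0.52; adjusted p = 0.129). Gls2 kept the call whichever library was left out. Leaving out 1 library ended the call of Cps1 without Vehicle 1 (adjusted p = 0.0502), Ass1 without Vehicle 1 (adjusted p = 0.0502) and Arg1 without Vehicle 3 (adjusted p = 0.0558). No longer past the threshold were Asl without any 1 of Vehicle 1, 2, 3 and 4 (adjusted p up to 0.0816, without Vehicle 1).

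Genes of amino acid breakdown and uptake were higher as well. Of 43 breakdown genes none fell (median 0.16) and 8 rose, where 1.3% of all genes tested rose. Among the 8 were Gpt2, Prodh, Sds and Tat. Sds, the serine dehydratase that turns serine into pyruvate, had values of 181, 175, 152, 148 and 197 CPM in the Vehicle libraries, 591, 624, 314, 541 and 469.7 CPM in the GDF15 libraries and 245, 319, 206, 229 and 204 CPM in the PairFed libraries. Each reduced-intake library was above each Vehicle library, and the GDF15 libraries were higher than most PairFed libraries. Sds rose by 1.03 ± 0.15 (SE; adjusted p = 0.00645), at 1.57 in GDF15 and 0.49 in PairFed. Prodh, the first enzyme of proline breakdown, rose by 0.60 ± 0.10 (SE; adjusted p = 0.00954), and Gpt2, the mitochondrial alanine aminotransferase, by 0.32 ± 0.065 (SE; adjusted p = 0.0183) with like values in both arms (0.29 and 0.34). Without 1 library the count of risen breakdown genes ran from 2 to 13 genes, the fewest without Vehicle 1 and 3.

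Among 15 amino acid transporters, Slc7a2 and Slc38a4 rose and none fell (median 0.33). Slc7a2 carries arginine and lysine into the hepatocyte. Its values were 263, 275, 171, 287 and 279 CPM in the Vehicle libraries, 682, 639.8, 337, 463 and 593 CPM in the GDF15 libraries and 402, 553, 454, 447 and 344 CPM in the PairFed libraries. All 10 reduced-intake libraries were above the Vehicle range, and Slc7a2 rose by 0.94 ± 0.17 (SE; adjusted p = 0.0162), or 1.92-fold. Slc38a4, a sodium-coupled carrier of neutral amino acids, rose by 0.52 ± 0.086 (SE; adjusted p = 0.00776), again without overlap, from 814 ± 117 CPM in Vehicle to 1251 ± 136 in GDF15 and 1089 ± 83.4 in PairFed (mean ± SD, n = 5 each). Slc25a22, a mitochondrial glutamate carrier counted with the 19 glucose production genes, rose by 0.71 ± 0.14 (SE; adjusted p = 0.0201). Besides it and Gpt2, no gene of that list passed. Of the 19, 17 had positive estimates and 9 an unadjusted p below 0.05 (median 0.17, at 0.25 in GDF15 and 0.088 in PairFed against Vehicle). Without 1 library 0 to 6 of them rose, the fewest without Vehicle 1 and 3. Pck1, the rate-limiting enzyme of glucose production from amino acids, had a change of 1.09 ± 0.30 (SE; adjusted p = 0.0761) and passed in 4 of 26 alternative fits. Sds, Prodh and Slc38a4 kept the call whichever library was left out. Single libraries decided the call of Slc7a2 without Vehicle 1 (adjusted p = 0.0511), Gpt2 without any 1 of Vehicle 1 and 3 (adjusted p up to 0.0732, without Vehicle 3) and Slc25a22 without any 1 of Vehicle 1, 2 and 3 (adjusted p up to 0.0754, without Vehicle 3).

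Of 24 genes of the insulin and FOXO response, which insulin represses or FOXO factors activate, Foxo1 and Foxo3 rose and none fell. Foxo1 rose by 0.60 ± 0.13 (SE; adjusted p = 0.0324) and Foxo3 by 0.54 ± 0.10 (SE; adjusted p = 0.0112). In Vehicle, Foxo3 was at 51.8 ± 10.3 CPM, in GDF15 at 82.7 ± 8.44 and in PairFed at 68.4 ± 4.95 (mean ± SD, n = 5 each). Igfbp1, a classical FOXO target that insulin suppresses, was at 1.12 ± 0.52 (SE; adjusted p = 0.273), did not pass and changed sign after adjustment for the immediate-early score (-0.10). Foxo3 kept the call whichever library was left out. Calls ended for Foxo1 without any 1 of Vehicle 1, 2, 3 and 4 and GDF15 2 and 5 (adjusted p up to 0.111, without Vehicle 3).

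Glucocorticoids are adrenal steroids that act on hepatocytes through the glucocorticoid receptor. Of 29 genes they are known to induce, 9 rose, where 1.3% of all genes tested rose, and none fell (median 0.59, at 0.96 in GDF15 and 0.37 in PairFed against Vehicle). The list was chosen with results of these data known, so its direction is no independent evidence. Fkbp5, a chaperone of the receptor, had values of 28.01, 26.4, 18.9, 29.7 and 28.04 CPM in the Vehicle libraries, 84.2, 109.8, 64.2, 69.5 and 97.9 CPM in the GDF15 libraries and 31.7, 32.6, 26.9, 41.7 and 31.3 CPM in the PairFed libraries. The GDF15 libraries were all above both other groups, while the PairFed libraries overlapped Vehicle. Fkbp5 rose in the average by 1.01 ± 0.14 (SE; adjusted p = 0.00606), with 1.69 in GDF15 and 0.32 in PairFed. The difference between the arms was 1.37 (95% interval 1.04 to 1.71; adjusted p = 0.000652).

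Zbtb16, a transcriptional repressor, and Lpin1, a phosphatidate phosphatase and coactivator, had the same unevenness. Zbtb16 was at 1.83 in GDF15 and 0.37 in PairFed and Lpin1 at 1.90 and 0.42, with averages of 1.10 ± 0.22 (SE; adjusted p = 0.0239) and 1.16 ± 0.24 (SE; adjusted p = 0.0254). The metallothionein genes Mt1 and Mt2, whose proteins bind zinc and copper, rose by 1.78 ± 0.36 (SE; adjusted p = 0.0257) and 1.88 ± 0.45 (SE; adjusted p = 0.0497). Mt1 was at 2.06 in GDF15 and 1.49 in PairFed, a difference of 0.57 (95% interval -0.24 to 1.38; adjusted p = 0.553), and Mt2 at 2.35 and 1.41, a difference of 0.94 (95% interval -0.063 to 1.94; adjusted p = 0.407). With the term for the deeper libraries these differences were 1.15 and 1.54, neither past the threshold, and the average of Mt2 no longer passed (adjusted p = 0.0605). Mt1 values were 32.95, 32.6, 26.1, 72.5 and 63.9 CPM in the Vehicle libraries, 248, 284, 59.3, 192 and 175 CPM in the GDF15 libraries and 95.2, 149, 145, 133 and 122 CPM in the PairFed libraries. The GDF15 libraries spread widely, and the groups overlapped. Pnpla2, the triglyceride lipase ATGL, rose by 0.47 ± 0.10 (SE; adjusted p = 0.0263), with 0.43 in GDF15 and 0.51 in PairFed (difference interval -0.33 to 0.16). Tat, tyrosine aminotransferase, rose by 1.22 ± 0.29 (SE; adjusted p = 0.0449), at 1.66 in GDF15 and 0.78 in PairFed (difference interval 0.20 to 1.56). That interval is unadjusted, and the difference between the arms did not pass edgeR's adjusted threshold. With the term for the deeper libraries the difference was 0.48 (adjusted p = 0.796). Without 1 library the count of risen genes of the list ran from 2 to 13 genes, the fewest without Vehicle 1. Fkbp5 kept the call whichever library was left out. The call was lost by Zbtb16 without any 1 of Vehicle 1, 2 and 3 (adjusted p up to 0.0668, without Vehicle 1), Mt1 without any 1 of Vehicle 1, 2 and 3 (adjusted p up to 0.0853, without Vehicle 3) and Pnpla2 without any 1 of Vehicle 1, 2 and 3 and GDF15 2 (adjusted p up to 0.0824, without Vehicle 3). Leaving out 1 library ended the call of Lpin1 without any 1 of Vehicle 1, 2, 3, 4 and 5 (adjusted p up to 0.0824, without Vehicle 3), Mt2 in 13 of the 15 fits that each left out 1 library (adjusted p up to 0.145, without Vehicle 3) and Tat in 13 of the 15 fits that each left out 1 library (adjusted p up to 0.141, without Vehicle 3).

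Some clock repressors were higher. Of 10 tested, Per1, Cry2, Ciart and Bhlhe40 rose, where 1.3% of all genes tested rose, and none fell (median 0.43, at 0.44 in GDF15 and 0.57 in PairFed against Vehicle). Bhlhe41, which did not pass in the average (0.42, adjusted p = 0.554), was the 1 member whose arms differed (named after its values were seen), at -0.54 in GDF15 and 1.37 in PairFed, a difference of -1.91 (95% interval -2.74 to -1.09; adjusted p = 0.0344). How that difference depends on the term for the deeper libraries or on single libraries was not examined. Of 14 clock activators and output factors, 1 rose, Por, the electron donor of the P450 enzymes (1.04, adjusted p = 0.038), which is also on the cytochrome P450 list. The estimates of the 14 ran from -1.86 to 1.63, 9 positive and 5 negative, and 7 had an unadjusted p below 0.05. Their median was 0.36, at 0.29 in GDF15 and 0.34 in PairFed against Vehicle. Per1 and Ciart are transcribed under the E-box CACGTG, the site that Clock and Bmal1 bind. Their promoters are shown to place that site relative to the gene's start. The windows are from RefSeq (GRCm38.p6), 250 bases before to 50 after the start, 5′ to 3′ on the gene's strand, with CACGTG in capitals (Ciart chr3:95882179-95882478, minus strand, and Per1 chr11:69098699-69098998, plus strand).
Ciart: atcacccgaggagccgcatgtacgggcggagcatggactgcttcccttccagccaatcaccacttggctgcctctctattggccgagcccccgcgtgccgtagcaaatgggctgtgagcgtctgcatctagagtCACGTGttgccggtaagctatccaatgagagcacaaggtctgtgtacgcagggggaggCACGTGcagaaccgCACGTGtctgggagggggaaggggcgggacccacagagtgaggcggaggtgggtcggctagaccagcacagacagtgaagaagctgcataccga
Per1: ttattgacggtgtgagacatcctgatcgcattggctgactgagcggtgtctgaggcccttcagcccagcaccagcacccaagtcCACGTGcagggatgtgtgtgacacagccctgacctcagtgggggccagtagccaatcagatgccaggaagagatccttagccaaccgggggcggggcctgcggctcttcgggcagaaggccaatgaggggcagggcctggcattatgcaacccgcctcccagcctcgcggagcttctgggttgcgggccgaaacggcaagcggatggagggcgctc

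The motif CACGTG, which reads the same on both strands, occurred 3 times in the Ciart window, 116, 58 and 44 bases before the start, and once in that of Per1, 166 bases before it. A second Per1 window and the Cry2 window held none. Bhlhe41 and Cry1, clock repressors that did not pass, held 1 each. Over 12614 promoter windows of tested genes 9.81% held the motif, against 11.7% of windows of the higher genes and 5.79% of those of the lower genes. These are descriptions of letters, with no test.

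Per1 values were 32.2, 32.5, 17.05, 39.3 and 36.2 CPM in the Vehicle libraries, 92.5, 101, 43.8, 68.6 and 88.2 CPM in the GDF15 libraries and 74.3, 81.8, 68.7, 51.8 and 62.4 CPM in the PairFed libraries. The highest Vehicle library, at 39.3 CPM, was below the lowest reduced-intake library, at 43.8 CPM. Per1 rose 2.31-fold, by 1.21 ± 0.22 (SE; adjusted p = 0.0161), with a GDF15 minus PairFed difference of 0.22 (95% interval -0.29 to 0.72; adjusted p = 0.749). Cry2 values were 32.3, 33.2, 27.7, 38.97 and 31.1 CPM in the Vehicle libraries, 47.02, 52.8, 39.95, 40.4 and 43.8 CPM in the GDF15 libraries and 41.4, 49.6, 48.4, 42.8 and 40.5 CPM in the PairFed libraries. Its smaller rise, 0.45 ± 0.083 (SE; adjusted p = 0.0116), was again without overlap, and the arms were at 0.45 and 0.45. Ciart, which represses Clock and Bmal1, had values of 2.38, 2.61, 0.624, 4.69 and 1.39 CPM in the Vehicle libraries, 22.7, 13.3, 6.24, 8.04 and 18.2 CPM in the GDF15 libraries and 4.39, 11.8, 18.8, 12.8 and 6.13 CPM in the PairFed libraries. The Vehicle libraries were themselves uneven and the groups overlapped. Ciart rose by 2.30 ± 0.49 (SE; adjusted p = 0.031), with an arm difference of 0.32 (95% interval -0.66 to 1.30; adjusted p = 0.819), or 1.59 (adjusted p = 0.501) with the term for the deeper libraries. Bhlhe40, another repressor of the loop, rose by 0.66 ± 0.16 (SE; adjusted p = 0.0421). Cry2 kept the call whichever library was left out. No longer past the threshold were Per1 without Vehicle 1 (adjusted p = 0.0511), Ciart in 7 of the 15 fits that each left out 1 library (adjusted p up to 0.0924, without Vehicle 3) and Por in 11 of the 15 fits that each left out 1 library (adjusted p up to 0.115, without Vehicle 1). Single libraries decided the call of Bhlhe40 in 12 of the 15 fits that each left out 1 library (adjusted p up to 0.134, without Vehicle 3). Per1 is also a glucocorticoid-induced and a stimulus-responsive gene, and the hour at which each liver was taken is not known here, so hour and group cannot be told apart.

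**Figure D3:**
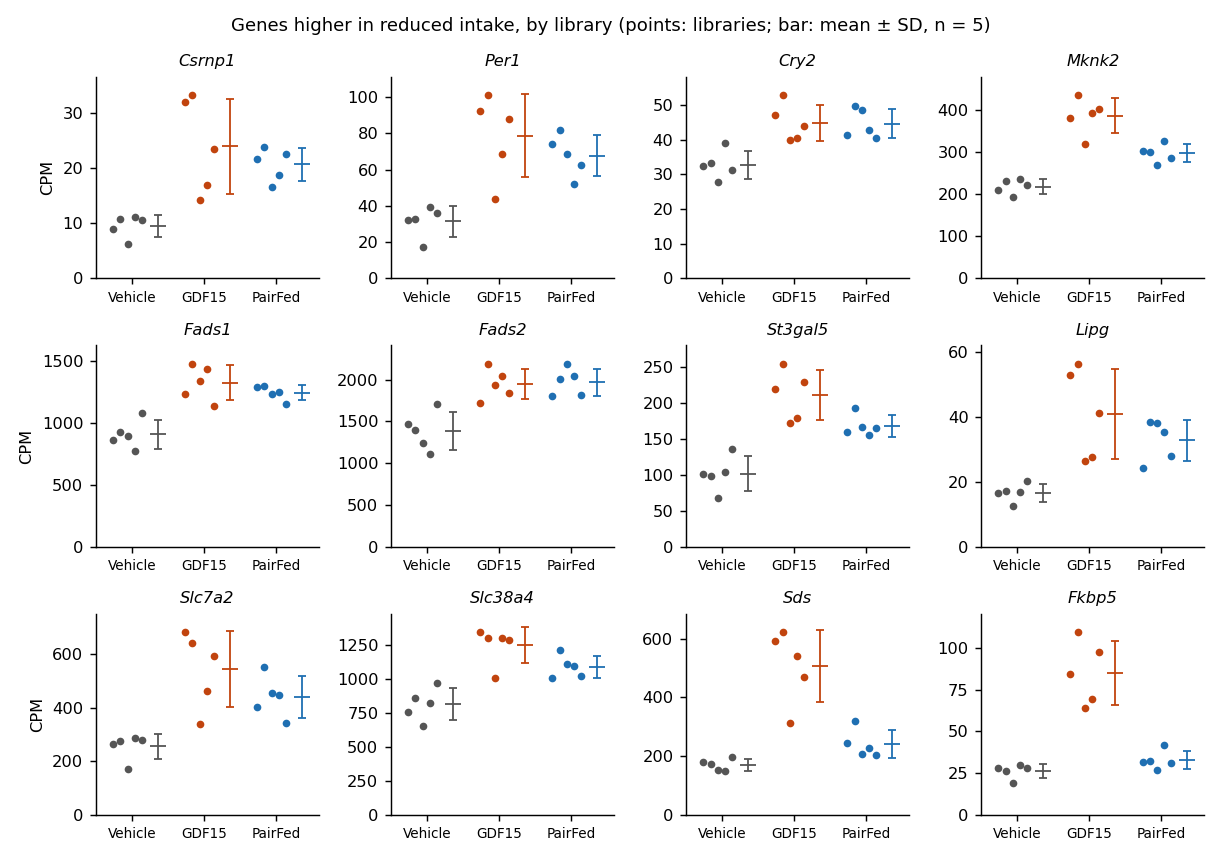
CPM (y axis, from 0) of 12 genes higher in reduced intake in each library (points), with mean ± SD of the 5 libraries beside them, for Vehicle, GDF15 and PairFed (x axis). Csrnp1, Per1, Cry2, Fads1 and Fads2 have like levels in GDF15 and PairFed, whereas Fkbp5 is high in GDF15 alone and overlaps between PairFed and Vehicle.

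Desaturase genes were higher. Fads1 and Fads2 introduce double bonds into long-chain polyunsaturated fatty acids. Fads1 values were 862, 927, 897, 773 and 1084 CPM in the Vehicle libraries, 1238, 1482, 1341, 1441 and 1140.0 CPM in the GDF15 libraries and 1294, 1299, 1237, 1256 and 1154 CPM in the PairFed libraries. Fads1 rose by 0.50 ± 0.077 (SE; adjusted p = 0.00606) and Fads2 by 0.50 ± 0.089 (SE; adjusted p = 0.00978), both without overlap, and the intervals of GDF15 minus PairFed, -0.092 to 0.27 and -0.23 to 0.19, hold differences of either sign. Of 29 fatty acid synthesis genes 5 rose (Dgat2, Fads1, Fads2, Lpin1 and Slc25a1), where 1.3% of all genes tested rose. None fell, and the median was 0.081. Without 1 library the count of risen genes ran from 2 to 5 genes, the fewest without Vehicle 1, 2 and 3. The name of the list does not describe these members alone: Fasn, the fatty acid synthase itself, was at -0.18 ± 0.32 (SE; adjusted p = 0.814), with 0.25 in GDF15 and -0.60 in PairFed, and its sign turned under 3 settings. The difference between its arms did not pass edgeR's adjusted threshold. With the term for the deeper libraries that difference was -0.040 (adjusted p = 0.985).

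Of 25 cholesterol synthesis and uptake genes 1 rose and none fell. All 25 had positive estimates, with medians of 0.27 in GDF15 and 0.29 in PairFed against Vehicle (0.26 in the average). Of 38 genes of fatty acid oxidation, ketone synthesis and PPARalpha, none passed edgeR's threshold (10 with an unadjusted p below 0.05, 4 called by DESeq2 and 0 by limma-voom), and 34 had positive estimates with a median of 0.12. Cpt1a, which admits fatty acids to mitochondria, was at 0.42 ± 0.14 (SE; adjusted p = 0.115).

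Lipases moved in both directions. Lipg, endothelial lipase, which cleaves phospholipids of high-density lipoprotein, rose by 1.14 ± 0.20 (SE; adjusted p = 0.0134) from 16.6 ± 2.73 CPM in Vehicle to 41.01 ± 13.9 in GDF15 and 32.9 ± 6.41 in PairFed (mean ± SD, n = 5 each), without overlap. Lpl, lipoprotein lipase, which adult hepatocytes express little and macrophages express, fell by 0.58 ± 0.11 (SE; adjusted p = 0.0149) on the log2 scale. Its values were 96.7, 56.9, 73.9, 85.5 and 76.2 CPM in the Vehicle libraries, 45.6, 53.3, 67.4, 52.7 and 57.1 CPM in the GDF15 libraries and 46.7, 39.96, 56.5, 52.4 and 50.2 CPM in the PairFed libraries. St3gal5, the synthase of the ganglioside GM3, rose by 0.89 ± 0.13 (SE; adjusted p = 0.00645) without overlap, and Mfsd2a, a carrier of lysophosphatidylcholine with omega-3 fatty acids that is induced on fasting, rose by 1.09 ± 0.20 (SE; adjusted p = 0.0148). Fads1, Fads2, St3gal5 and Mfsd2a kept the call whichever library was left out. Calls ended for Lipg without Vehicle 1 (adjusted p = 0.0502) and Lpl without Vehicle 1 (adjusted p = 0.0511).

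Genes of antigen presentation and of immune cells were among the lower genes. In bulk liver, fewer cells of a type and less RNA per cell cannot be told apart. Of 9 MHC class II presentation genes, which display peptides to helper T cells, 6 fell where 0.896% of all genes tested fell, none rose and all 9 had negative estimates (median -0.62, at -0.70 in GDF15 and -0.48 in PairFed against Vehicle). The members that fell were the master activator Ciita, the class II chains H2-Ab1 and H2-Eb1, the peptide exchange subunits H2-DMa and H2-DMb1, and Ctss, the protease cathepsin S. Without 1 library the number that fell ran from 3 to 8 genes, the fewest without Vehicle 1. This list too was chosen with results of these data known, so its count is no independent evidence.

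Ciita (chr16:10480014-10531064, GRCm38) had values of 7.92, 6.94, 5.30, 9.30 and 4.92 CPM in the Vehicle libraries, 2.30, 3.56, 3.41, 3.63 and 3.68 CPM in the GDF15 libraries and 3.06, 3.26, 4.50, 4.37 and 4.79 CPM in the PairFed libraries. Every reduced-intake library was below every Vehicle library. Ciita fell to a level 1.89-fold lower, a change of -0.92 ± 0.16 (SE; adjusted p = 0.0096), with -1.05 in GDF15 and -0.79 in PairFed (difference interval -0.70 to 0.16). H2-Ab1 values were 85.4, 82.6, 96.7, 115 and 70.1 CPM in the Vehicle libraries, 40.8, 54.7, 62.9, 60.2 and 58.4 CPM in the GDF15 libraries and 49.1, 56.1, 67.2, 66.6 and 81.6 CPM in the PairFed libraries. The ranges overlapped at their edge, and H2-Ab1 changed by -0.59 ± 0.13 (SE; adjusted p = 0.027) and H2-Eb1 by -0.62 ± 0.14 (SE; adjusted p = 0.0302). H2-DMa changed by -0.65 ± 0.12 (SE; adjusted p = 0.0112), H2-DMb1 by -0.65 ± 0.11 (SE; adjusted p = 0.00855) and Ctss by -0.54 ± 0.10 (SE; adjusted p = 0.0161), with Ctss alone of these 3 without overlap. Ciita, H2-DMa and H2-DMb1 kept the call whichever library was left out. The call was lost by Ctss without Vehicle 1 (adjusted p = 0.0576), H2-Ab1 without any 1 of Vehicle 1, 3 and 4, GDF15 2 and PairFed 2 (adjusted p up to 0.0912, without Vehicle 3) and H2-Eb1 without any 1 of Vehicle 1, 3 and 4, GDF15 2 and PairFed 2 and 4 (adjusted p up to 0.0938, without Vehicle 3).

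Chemokines that draw T cells were also lower. Cxcl10, the interferon-induced ligand of CXCR3, had values of 7.42, 9.95, 9.46, 7.77 and 7.06 CPM in the Vehicle libraries, 3.32, 2.87, 5.46, 3.14 and 3.89 CPM in the GDF15 libraries and 6.23, 5.48, 4.26, 5.07 and 6.36 CPM in the PairFed libraries. The groups did not overlap. Cxcl10 changed by -0.88 ± 0.14 (SE; adjusted p = 0.00776), 1.83-fold lower, and Ccl5, a chemokine made by T and NK cells, by -1.20 ± 0.26 (SE; adjusted p = 0.0229). Of 13 chemokine and cytokine genes these 2 fell, none rose and 12 had negative estimates. Of 30 interferon-induced genes none passed edgeR's threshold (13 with an unadjusted p below 0.05, 3 called by DESeq2 and 0 by limma-voom), while 27 had negative estimates (median -0.21), and none of 18 MHC class I and immunoproteasome genes passed (5 with an unadjusted p below 0.05, 0 called by DESeq2 and 0 by limma-voom; median -0.082). Cxcl10 kept the call whichever library was left out. Leaving out 1 library ended the call of Ccl5 without any 1 of Vehicle 1, 2 and 3 (adjusted p up to 0.0877, without Vehicle 1).

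Some markers of lymphocytes and recruited monocytes were lower beside these genes. Of 20 T, NK and B cell markers 16 are in the table and 8 had enough counts to be tested, all 8 had negative estimates and 2 fell (median -1.11). The score ran from -0.57 to 1.32 in Vehicle, -1.19 to -0.65 in GDF15 and -1.05 to 0.04 in PairFed, so single libraries overlapped. Cd8a, the co-receptor of cytotoxic T cells, had values of 2.18, 2.61, 1.56, 1.54 and 0.642 CPM in the Vehicle libraries, 0.639, 0.115, 0.487, 0.392 and 0.420 CPM in the GDF15 libraries and 1.43, 0.715, 0.643, 0.460 and 1.02 CPM in the PairFed libraries. These are low levels and the Vehicle libraries spread widely. Cd8a changed by -1.53 ± 0.33 (SE; adjusted p = 0.0239) and Nkg7, of cytotoxic granules, by -1.33 ± 0.34 (SE; adjusted p = 0.0486). Of 17 recruited monocyte markers Cd52 (-0.69, adjusted p = 0.0207), Coro1a (-0.58, adjusted p = 0.0443) and Ly6c2 (-1.10, adjusted p = 0.038) fell, and all 17 had negative estimates, with scores of -0.28 to 0.24 in Vehicle, -1.01 to -0.28 in GDF15 and -0.87 to -0.38 in PairFed.

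Syk, a kinase of immune receptor signalling, changed by -0.46 ± 0.074 (SE; adjusted p = 0.00645) and Unc13d, needed for release of cytotoxic granules, by -0.78 ± 0.18 (SE; adjusted p = 0.0307), both without overlap. Markers of other macrophages gave fewer calls. Of 16 Kupffer cell markers (resident macrophages) none passed edgeR's threshold (4 with an unadjusted p below 0.05, 0 called by DESeq2 and 0 by limma-voom) and the median was 0.012, with a sign that differed between settings. Of 20 lipid-associated macrophage markers Lpl alone fell, while 16 had negative estimates and 9 an unadjusted p below 0.05 (median -0.20, at -0.26 in GDF15 and -0.15 in PairFed against Vehicle). Without 1 library 0 to 4 of them fell, the fewest without Vehicle 1. Trem2, which defines those cells, was at -0.52 ± 0.15 (SE; adjusted p = 0.0795) and passed in 1 of 26 alternative fits. Syk kept the call whichever library was left out. No longer past the threshold were Cd52 without any 1 of Vehicle 1 and 4 (adjusted p up to 0.059, without Vehicle 1), Cd8a without any 1 of Vehicle 1, 2 and 3 (adjusted p up to 0.0817, without Vehicle 1) and Unc13d in 8 of the 15 fits that each left out 1 library (adjusted p up to 0.0787, without Vehicle 4). Single libraries decided the call of Coro1a in 11 of the 15 fits that each left out 1 library (adjusted p up to 0.12, without Vehicle 3), Ly6c2 in 11 of the 15 fits that each left out 1 library (adjusted p up to 0.124, without Vehicle 3) and Nkg7 in 11 of the 15 fits that each left out 1 library (adjusted p up to 0.172, without Vehicle 3). The parts of cell number and of expression per cell in the lower antigen presentation genes were not tested.

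**Figure D4:**
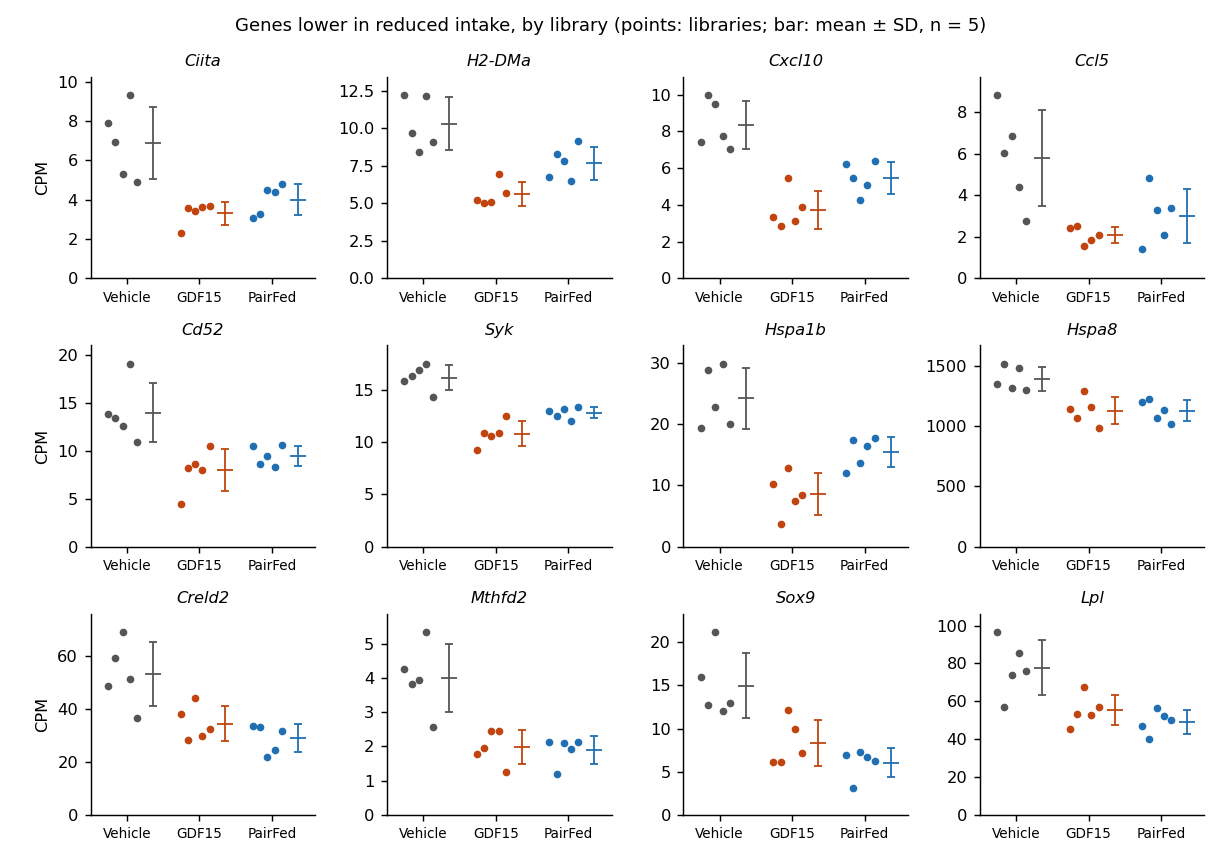
CPM (y axis, from 0) of 12 genes lower in reduced intake in each library (points), with mean ± SD of the 5 libraries beside them, for Vehicle, GDF15 and PairFed (x axis). All GDF15 and PairFed points of Ciita, Cxcl10, Cd52, Syk, Hspa1b, Hspa8 and Mthfd2 lie below all Vehicle points.

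Some genes of protein folding in the endoplasmic reticulum (ER) were lower. Of 26 such genes 24 had negative estimates (median -0.28, at -0.20 in GDF15 and -0.40 in PairFed against Vehicle). None rose and 6 fell, where 0.896% of all genes tested fell. The members were Hspa5, the chaperone BiP, Creld2, Manf and Sdf2l1, which are induced with it under ER stress, Pdia4, a disulfide isomerase, and Ern1, the stress sensor IRE1. The ER stress element, CCAAT and CCACG with 9 bases between them, is a binding site of ATF6 and NF-Y. It was searched after the values had been seen. The windows of Hspa5 (chr2:34771840-34772139, plus strand) and Creld2 (chr15:88819396-88819695, plus strand) hold it, in capitals, in the Creld2 window on the other strand.
Hspa5: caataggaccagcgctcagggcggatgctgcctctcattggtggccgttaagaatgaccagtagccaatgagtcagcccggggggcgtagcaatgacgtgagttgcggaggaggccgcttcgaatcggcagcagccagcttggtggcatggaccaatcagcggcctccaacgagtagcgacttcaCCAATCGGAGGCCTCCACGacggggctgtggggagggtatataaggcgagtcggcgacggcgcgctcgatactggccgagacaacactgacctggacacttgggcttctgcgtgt
Creld2: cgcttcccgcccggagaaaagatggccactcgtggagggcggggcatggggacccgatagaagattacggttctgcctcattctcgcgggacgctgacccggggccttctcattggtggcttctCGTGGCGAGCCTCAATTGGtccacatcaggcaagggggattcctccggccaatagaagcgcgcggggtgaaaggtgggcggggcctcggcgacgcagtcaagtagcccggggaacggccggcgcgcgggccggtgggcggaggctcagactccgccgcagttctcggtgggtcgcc

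The element begins 65 bases before the start in Hspa5 and 126 before it in Creld2. It was present in 19 of 12614 windows (0.151%), in 3 of the 121 windows of lower genes and in none of the 180 of higher genes. The third lower gene is Alg12, whose window overlaps that of its neighbour Creld2, so these 2 are not independent. Of the 22 genes of the list with a window 9 held the element, and of the 5 that fell and had a window, 2 did. No test was made.

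Hspa5 values were 1095, 1225, 1389, 962 and 886 CPM in the Vehicle libraries, 862, 782, 977, 821 and 734 CPM in the GDF15 libraries and 933, 759, 486, 547 and 699 CPM in the PairFed libraries. The groups overlapped. Hspa5 changed by -0.56 ± 0.14 (SE; adjusted p = 0.0474), with -0.41 in GDF15 and -0.70 in PairFed, an arm difference of 0.29 (95% interval -0.057 to 0.63; adjusted p = 0.464) that was -0.03 with the term for the deeper libraries. Creld2 values were 48.7, 59.2, 69.03, 51.1 and 36.7 CPM in the Vehicle libraries, 37.9, 28.1, 44.2, 29.6 and 32.4 CPM in the GDF15 libraries and 33.4, 33.3, 21.9, 24.6 and 31.7 CPM in the PairFed libraries. It changed by -0.75 ± 0.15 (SE; adjusted p = 0.0198). Manf changed by -0.74 (adjusted p = 0.038), Sdf2l1 by -0.70 (adjusted p = 0.0395), Pdia4 by -0.44 (adjusted p = 0.0281) and Ern1 by -0.39 (adjusted p = 0.038). With the term for the deeper libraries Hspa5, Manf and Sdf2l1 no longer passed, with adjusted p of 0.0503, 0.0572 and 0.0634. Without 1 library the number of members that fell ran from 0 to 10 genes, the fewest without Vehicle 1 and 3. Calls ended for Creld2 without any 1 of Vehicle 1 and 3 (adjusted p up to 0.0616, without Vehicle 3), Pdia4 without any 1 of Vehicle 1, 2 and 3, GDF15 2 and PairFed 2 and 4 (adjusted p up to 0.0976, without Vehicle 3) and Ern1 in 8 of the 15 fits that each left out 1 library (adjusted p up to 0.106, without Vehicle 3). The call was lost by Hspa5 in 11 of the 15 fits that each left out 1 library (adjusted p up to 0.147, without Vehicle 3), Manf in 11 of the 15 fits that each left out 1 library (adjusted p up to 0.12, without Vehicle 3) and Sdf2l1 in 11 of the 15 fits that each left out 1 library (adjusted p up to 0.12, without Vehicle 3).

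Of 21 cytosolic and mitochondrial heat shock genes, 3 fell (Hspa8, Hspa1b and Hsph1), 1 rose (Hspb8) and 15 had negative estimates. Hspa2, which rose, is not on that list. Hspa8, the constitutive cytosolic chaperone, had values of 1347, 1519.5, 1315, 1480.1 and 1299 CPM in the Vehicle libraries, 1139, 1067, 1291, 1159 and 987 CPM in the GDF15 libraries and 1202, 1225, 1071, 1135 and 1017 CPM in the PairFed libraries. Without overlap, it changed by -0.30 ± 0.067 (SE; adjusted p = 0.0247), with the same estimate in both arms (-0.30 and -0.30). Hspa1b, the inducible form, changed by -1.08 ± 0.19 (SE; adjusted p = 0.0116), also without overlap, and is uncertain because it shares nearly all its sequence with a neighbouring copy. Hsph1, its nucleotide exchange partner, changed by -0.43 ± 0.10 (SE; adjusted p = 0.038). Mthfd2, a mitochondrial folate enzyme of growing cells, had values of 4.26, 3.82, 3.95, 5.35 and 2.57 CPM in the Vehicle libraries, 1.79, 1.95, 2.44, 2.45 and 1.26 CPM in the GDF15 libraries and 2.14, 1.19, 2.09, 1.92 and 2.12 CPM in the PairFed libraries. All reduced-intake libraries were below Vehicle, and Mthfd2 changed by -1.05 ± 0.19 (SE; adjusted p = 0.0112), with an arm difference interval of -0.45 to 0.60. Hspa1b and Mthfd2 kept the call whichever library was left out. Leaving out 1 library ended the call of Hspa8 without any 1 of Vehicle 1 and 2 (adjusted p up to 0.0678, without Vehicle 2) and Hsph1 in 10 of the 15 fits that each left out 1 library (adjusted p up to 0.106, without Vehicle 3).

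Further genes of other cell types and of secretion were lower as well. Sox9, a factor of bile duct and progenitor cells, had values of 15.9, 12.8, 21.2, 12.01 and 12.9 CPM in the Vehicle libraries, 6.13, 6.08, 12.2, 10.001 and 7.15 CPM in the GDF15 libraries and 6.94, 3.10, 7.23, 6.75 and 6.21 CPM in the PairFed libraries. A single GDF15 library lay just inside the Vehicle range. Sox9 changed by -1.07 ± 0.20 (SE; adjusted p = 0.0127) and was the only one of 16 bile duct and progenitor markers to pass. Of the 16, 14 had negative estimates and 8 an unadjusted p below 0.05 (median -0.39, at -0.29 in GDF15 and -0.54 in PairFed against Vehicle). Cfd, complement factor D, made mostly by fat cells, changed by -1.47 ± 0.32 (SE; adjusted p = 0.031). Of the 16 markers of pancreas, gut, muscle and fat, 3 had enough counts to be tested. Orm2, an acute-phase protein gene, changed by -0.54 ± 0.10 (SE; adjusted p = 0.0127) without overlap, while of 32 acute-phase, complement and iron genes 2 fell (Apcs and Orm2) and 1 rose (Serpina3m). Dynll1, a dynein light chain, changed by -0.62 ± 0.11 (SE; adjusted p = 0.00855) and Rtp3, a liver-enriched receptor transporter protein, by -0.45 ± 0.068 (SE; adjusted p = 0.00606), and Usp22, a histone deubiquitinase, rose by 0.29 ± 0.05 (SE; adjusted p = 0.00879). Dynll1, Rtp3 and Usp22 were chosen after their values were seen, as genes that kept their call without each library and had like values in both arms (-0.54 and -0.70, -0.39 and -0.51, and 0.27 and 0.31). Sox9 kept the call whichever library was left out. No longer past the threshold were Orm2 without Vehicle 1 (adjusted p = 0.0502) and Cfd in 8 of the 15 fits that each left out 1 library (adjusted p up to 0.0738, without Vehicle 1).

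Collagen and matrix genes did not pass. Of 33 stellate cell and matrix genes none passed edgeR's threshold (4 with an unadjusted p below 0.05, 1 called by DESeq2 and 0 by limma-voom), 30 had negative estimates, and the median was -0.24, or 0.11 with 1 surrogate variable as a covariate. Over all genes tested, 2253 of 12274 had an unadjusted p below 0.05. Col1a1, the main chain of fibrillar collagen, was at -0.58 ± 0.31 (SE; adjusted p = 0.339). Sinusoidal endothelial markers had positive estimates in 21 of 21, none of which passed edgeR's threshold (0 with an unadjusted p below 0.05, 0 called by DESeq2 and 0 by limma-voom), with medians of 0.045 in GDF15 and 0.36 in PairFed against Vehicle. Hepatocyte markers had a median of 0.12.

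**Figure D5:**
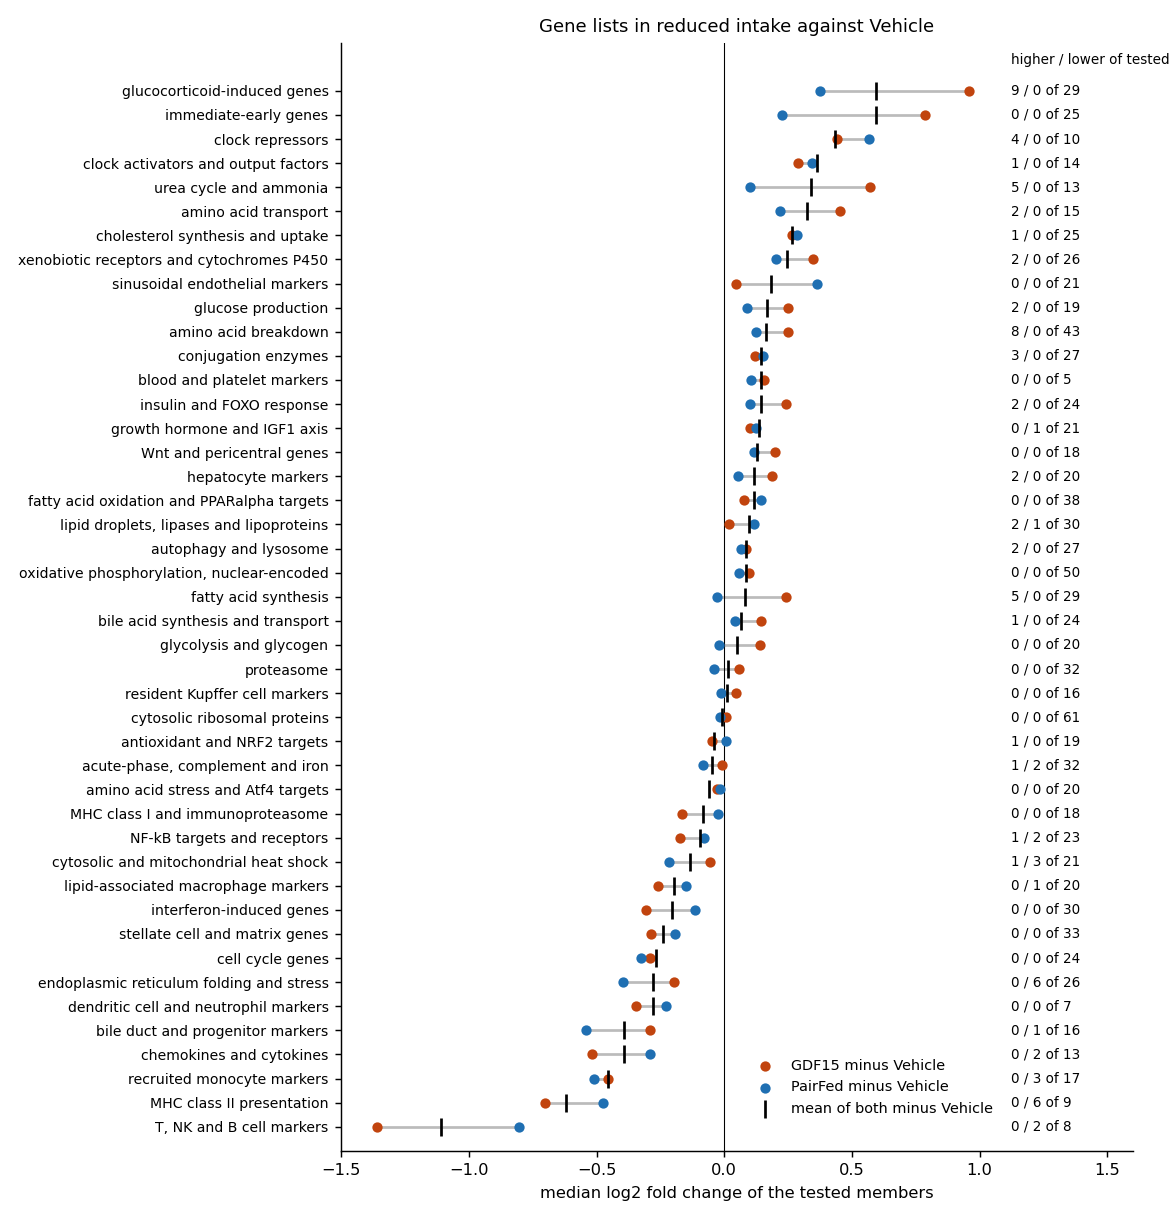
Median log2 fold change of the tested members of each gene list with at least 5 of them (x axis, log2), for GDF15 (orange) and PairFed (blue) against Vehicle and for their average (black tick), with the number of members higher and lower at right. T, NK and B cell markers have the lowest median, MHC class II genes lie at -0.62, and glucocorticoid-induced genes lie at 0.59 with the GDF15 median above the PairFed median.

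In some genes that passed in the average, most of the change was in the GDF15 group. Gin1, related to retroviral integrases, was at 0.87 in GDF15 and -0.10 in PairFed, and Arhgef37, a predicted guanine nucleotide exchange factor, at 1.20 and -0.004. Their averages were 0.39 ± 0.078 (SE; adjusted p = 0.0178) and 0.60 ± 0.14 (SE; adjusted p = 0.038), and they were the only 2 of the 270 genes whose arms differed in sign. The differences between the arms were 0.97 (95% interval 0.79 to 1.16; adjusted p = 2.13e-05) and 1.21 (95% interval 0.87 to 1.54; adjusted p = 0.00126). Il6ra, the interleukin 6 receptor, rose by 0.67 ± 0.15 (SE; adjusted p = 0.038) in the average with 1.15 in GDF15 and 0.18 in PairFed, and did not pass with the term for the deeper libraries (adjusted p = 0.0594). Single libraries decided the call of Gin1 without Vehicle 3 (adjusted p = 0.0638), Arhgef37 in 9 of the 15 fits that each left out 1 library (adjusted p up to 0.115, without Vehicle 1) and Il6ra in 11 of the 15 fits that each left out 1 library (adjusted p up to 0.0849, without Vehicle 1).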

How the data were processed

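RNA of 15 mouse livers was sequenced from directional libraries, per the labels' protocols. The submitters' processing notes name Salmon, DESeq2 and mm10. Their versions are not given. The authors deposited 1 table of expected counts per gene, held as whole numbers. That these are rounded Salmon estimates is read from the tool names and is not stated. All 15302 genes have a total of at least 5. Columns carry only a group and a number, so libraries of 1 group are interchangeable.

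Genes were filtered with filterByExpr (minimum count 10, minimum total 15), which kept 99.9% of counts, scaled by TMM and tested with edgeR 4.0.16 (R 4.3.3; robust quasi-likelihood test, Benjamini-Hochberg adjustment over all 12274 tested genes). CPM use TMM-scaled library sizes. List scores are means of log2 CPM with a prior count of 2. The standard error is the fold change divided by the root of the F statistic. The scripts were tested on simulated data. The biological coefficient of variation was 13.3%, which with 5 libraries a group sets the precision.

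The comparison, the members named and the 45 gene lists were chosen with earlier results of these data known, while libraries enter by group label. The naming rule starts from called genes averaging a log2 CPM of 1 or more, without overlap of the 10 reduced-intake libraries with Vehicle. Named are the 12 largest changes each way, the 10 largest smaller arms each way and up to 5 differing between GDF15 and PairFed. Without those conditions, the rule adds up to 2 tested members of each list by smallest p, and genes of the study question. Of 79 genes considered 53 follow the rule, 19 are other list members and 7 (Mfsd2a, Gin1, Arhgef37, Syk, Dynll1, Rtp3 and Usp22) were chosen after their values were seen. Bhlhe41, outside these 79, was also named after its values were seen. Some genes past the threshold are not reported here. Symbols were matched to RefSeq (GRCm38.p6) for 15289 genes, and promoters to 9847 tested genes. Alternatives used DESeq2 1.42.0, limma 3.58.1 and sva 3.50.0.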

Additional observations from a re-analysis of the deposited data

Results flagged for a closer look

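Single libraries stood apart from the other 4 of their group in 12 of 240 groups of values checked with Dixon's test, which chance alone flags in about 1 of 20. Low values were Ciita in GDF15 1 (2.30 CPM), Slc38a4 in GDF15 3 (1011 CPM), Slc7a2 in Vehicle 3 (171 CPM), Sult1a1 in Vehicle 1 (195 CPM), Pnpla2 in PairFed 1 (86.95 CPM), Sox9 and Mthfd2 in PairFed 2 (3.10 and 1.19 CPM) and Dynll1 in PairFed 4 (10.2 CPM). High values were Arg1 in PairFed 2 (1161 CPM) and Pdia4 in PairFed 1 (285 CPM). The total count of PairFed 1 (10133289) was below, and that of Vehicle 4 (12994187) above, the others of its group.

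The 2 reduced-intake groups differed from each other in 11 of the named genes that passed in the average, by edgeR's test of GDF15 minus PairFed. The log2 differences were 1.48 for Lpin1, 1.46 for Zbtb16, 1.37 for Fkbp5 and 1.08 for Sds. They were 1.21 for Arhgef37, 0.97 for Il6ra, 0.97 for Gin1, 0.72 for Cps1, 0.53 for Prodh, 0.50 for Ass1 and 0.38 for Mknk2. With a term for the deeper libraries, of these Fkbp5, Prodh and Gin1 stayed past the threshold. The other 8 no longer passed, with differences of 1.38 for Zbtb16, 1.11 for Il6ra, 1.05 for Lpin1, 1.00 for Arhgef37, 0.96 for Sds, 0.53 for Ass1, 0.52 for Cps1 and 0.42 for Mknk2.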

How the results depend on the processing

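For reduced intake against Vehicle, 270 genes changed (160 higher, 110 lower). The DESeq2 Wald test gave 606 (349 and 257), a pooled fit of 10 against 5 libraries 137 (77 and 60), 1 surrogate variable as a covariate 120 (75 and 45), the immediate-early score as a covariate 1 (1 and 0), the 10 shallower libraries alone 0 (0 and 0), and a minimum change of 1 log2 unit 35. Upper-quartile factors gave 310 genes, 173 of them lower. DESeq2 size factors, no filter on low counts, a filter of 10 CPM in 5 libraries, limma-voom and a term for the deeper libraries gave 241 to 298 genes. Fits that each left out 1 library gave 59 to 405 genes, 43 to 251 higher and 16 to 154 lower.

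For GDF15 against PairFed the count of 96 genes became 259 with DESeq2, 9 with the term for the deeper libraries, 0 in the shallower libraries alone and 35 with the immediate-early score. Leaving out 1 library gave 21 to 171.

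Estimates changed sign for 2 named genes, neither of them past the threshold. Fasn was at 0.0871 with the term for the deeper libraries, 0.0952 in the shallower libraries alone and 0.13 without Vehicle 3 (from -0.36 to 0.13 without 1 library, lowest without Vehicle 4), and Igfbp1 at -0.0963 with the immediate-early score. Of the 73 named genes that passed, 27 kept the call without each library in turn. The medians of 6 of the 45 lists changed sign under some setting: Kupffer cell, stellate cell and matrix, blood and platelet, cell cycle, ribosomal and proteasome genes. The cause of these changes was not tested. No paired analysis was possible because the columns carry no animal or cage label and their numbers cannot be tied to the samples' labels. Depth limits the T, NK and B cell markers, of which 8 of 20 had enough counts to be tested.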

Other observations

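Some drug-metabolising genes were higher. Of 26 xenobiotic receptor and cytochrome P450 genes, Nr1i2, the receptor PXR, and Por rose, where 1.3% of all genes tested rose, and none fell (median 0.25). Of 27 conjugation enzymes 3 rose (Gstt1, Sult1a1 and Sult1d1) and none fell. Sult1a1, a phenol sulfotransferase, rose by 0.56 ± 0.092 (SE; adjusted p = 0.00776) with 0.70 in GDF15 and 0.42 in PairFed, without overlap with Vehicle, and kept its call without each library. In the bile acid list Cyp27a1 rose, 1 of 24, and in 11 of the 15 fits without 1 library no gene of that list rose. The same held for the cytochrome P450 list in 7 fits, and conjugation enzymes gave 1 to 5 genes, the fewest without Vehicle 1 and 3. Of 18 Wnt and pericentral genes none passed edgeR's threshold (5 with an unadjusted p below 0.05, 3 called by DESeq2 and 1 by limma-voom; median 0.13).

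Genes of organelle upkeep had small estimates. Of 27 autophagy and lysosome genes Atg2a, a lipid transfer protein of the forming autophagosome, and Map1lc3b rose (median 0.087). Atg2a rose by 0.34 ± 0.064 (SE; adjusted p = 0.0133), with 0.32 in GDF15 and 0.35 in PairFed, and stayed past the threshold without each library. Of 50 nuclear-encoded oxidative phosphorylation subunits 48 had positive estimates, none past edgeR's threshold (7 with an unadjusted p below 0.05, 3 called by DESeq2 and 0 by limma-voom), with a median of 0.084. Over all 12274 genes tested, 2253 had an unadjusted p below 0.05 and DESeq2 called 606. The medians of 61 ribosomal protein genes and 32 proteasome genes were -0.0095 and 0.014, with signs that differed between settings. None of either list passed edgeR's threshold. Unadjusted p below 0.05, DESeq2 and limma-voom gave 0, 0 and 0 ribosomal and 0, 0 and 0 proteasome genes.

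In the growth hormone and IGF1 list (21 tested) Mup20, a major urinary protein gene of a family with near-identical copies, fell and none rose, and in 11 of the 15 fits without 1 library none fell. Of 23 NF-kB targets and receptors Il6ra rose and Tnfaip2 and Ubd fell, with none higher in 11 and none lower in 2 of those fits. Among 30 lipid droplet and lipase genes Lipg and Pnpla2 rose and Lpl fell, and among 19 antioxidant genes Txnrd3 rose. These genes were the members past the threshold. EdgeR's adjusted threshold was passed by none of the amino acid stress, glycolysis and glycogen, cell cycle, dendritic cell and neutrophil, or blood and platelet genes (20, 20, 24, 7 and 5 tested). Unadjusted p below 0.05, DESeq2 and limma-voom gave 9, 4 and 1 amino acid stress genes, 8, 4 and 0 glycolysis and glycogen genes, 3, 0 and 0 cell cycle genes, 1, 0 and 0 dendritic cell and neutrophil genes and 0, 0 and 0 blood and platelet genes.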
